A study of Homo sapiens with 24 samples.

Results

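Interferon-induced antiviral effector genes were followed across all 8 groups of an RNA-seq series in HCT116 cells, a human colorectal carcinoma line. A list of 45 gene symbols was chosen by function, with earlier results of these data known. It was matched to the identifiers of the count tables, and all 45 were found among the 58735 genes counted. The list holds the ISG15 system, the IFI, IFIT, IFITM, OAS and MX families, and other genes whose products act against viruses or are classic markers of an interferon response.

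As background, type I and type III interferons are secreted proteins that cells release after sensing foreign or misplaced nucleic acid. They bind receptors that activate the kinases JAK1 and TYK2, which act on transcription factors that bind interferon-stimulated response elements in the promoters of the effector genes. The effectors then act at different steps: IFITM proteins on virus entry, OAS enzymes and IFIT proteins on RNA, MX proteins on viral nucleocapsids, BST2 on the release of virions, and ISG15 as a ubiquitin-like modifier of other proteins. UHRF1 and DNMT1 maintain DNA methylation when DNA is replicated.

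The 4 genotypes were compared, each before auxin (day 0) and after 4 days of auxin, with 3 libraries in each of the 8 groups. WT denotes HCT116 cells with a doxycycline-inducible OsTIR1, the plant F-box protein that drives degradation of proteins carrying an auxin-inducible degron (AID). UHRF1-AID cells carry the tag on the endogenous UHRF1, DNMT1-AID cells on the endogenous DNMT1, and UHRF1-AID/DNMT1-AID cells (the compound line) on both. The induction was a day in 2 µg/mL doxycycline with auxinole, then 2 µg/mL doxycycline with 500 µM auxin, and the WT cells of day 4 received it too. Whether the day 0 cells had received doxycycline was not stated. The study describes the 3 libraries of each line and day as biological replicates, and those of the tagged lines as coming from 3 clones, so their spread includes that between clones. How the WT replicates were separated was not stated, and p-values measure the spread between libraries.

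The 6 promoter stretches that follow come first, because most effector genes with a known window hold the letters of an interferon-stimulated response element there. Each is the 200 bases before a RefSeq start site (GRCh38.p14), written 5′ to 3′ on the strand of the gene. Capitals mark matches to GAAANNGAAA, the core letters of an interferon-stimulated response element, on either strand, with overlapping matches run together. Pairs of GAAA with another spacing were not searched for, and window 2 of MX1 holds such a pair. ISG15 (chr1:1013297-1013496, + strand), IFI27 (chr14:94110536-94110735, + strand), IFITM1 (chr11:313840-314039, + strand) and BST2 (chr19:17405631-17405830, - strand) are shown because they rose both in WT over the days and further in all 3 tagged lines. MX1 (chr21:41431850-41432049, + strand, its window 3 of 3) is shown because its level differed most between the tagged lines, and HERC6 (chr4:88378652-88378851, + strand) because it rose in WT and not beyond WT. The capitals at the end of the IFITM1 stretch begin a match that runs past the start site. For MX1 only window 3 has a match before the start site. In its window 1 the match lies after the start site, and its window 2 has none. For the other genes window 1 is shown.
ISG15: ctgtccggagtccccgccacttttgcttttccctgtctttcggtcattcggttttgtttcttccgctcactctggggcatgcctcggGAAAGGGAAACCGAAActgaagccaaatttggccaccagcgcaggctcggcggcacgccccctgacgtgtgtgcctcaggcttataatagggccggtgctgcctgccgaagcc
IFI27: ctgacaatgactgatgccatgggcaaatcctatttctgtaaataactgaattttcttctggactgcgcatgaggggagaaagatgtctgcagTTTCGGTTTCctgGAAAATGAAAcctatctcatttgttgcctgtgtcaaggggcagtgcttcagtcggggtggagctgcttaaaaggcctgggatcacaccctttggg
IFITM1: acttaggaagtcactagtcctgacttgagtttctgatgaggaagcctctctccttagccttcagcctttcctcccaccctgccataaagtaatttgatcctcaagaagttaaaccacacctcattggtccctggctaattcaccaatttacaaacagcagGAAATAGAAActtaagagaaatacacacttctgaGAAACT
BST2: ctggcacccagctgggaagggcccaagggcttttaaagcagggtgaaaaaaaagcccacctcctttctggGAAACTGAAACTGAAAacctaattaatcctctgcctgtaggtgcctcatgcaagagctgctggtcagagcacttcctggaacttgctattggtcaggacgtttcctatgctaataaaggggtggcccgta
MX1: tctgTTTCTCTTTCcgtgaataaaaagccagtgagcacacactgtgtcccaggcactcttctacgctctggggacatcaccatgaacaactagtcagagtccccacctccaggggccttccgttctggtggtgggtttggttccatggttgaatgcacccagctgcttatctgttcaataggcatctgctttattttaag
HERC6: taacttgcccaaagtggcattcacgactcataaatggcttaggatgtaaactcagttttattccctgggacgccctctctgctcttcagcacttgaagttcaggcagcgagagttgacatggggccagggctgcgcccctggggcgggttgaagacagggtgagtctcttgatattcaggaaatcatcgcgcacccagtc

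Windows from 250 bases before to 50 after the start were on hand for 38 of the 45 genes, 51 windows in all. MX2, IFIT2, LAMP3, IFITM2, OASL, USP18 and OAS2 had none. GAAANNGAAA was present in 35 of the 51 windows (68.6%), against 1255 of the 35116 windows of all genes (3.57%). By gene, 30 of the 38 had a match in at least 1 window (78.9%), against 4.38% of all genes with a window. No match was found for CMPK2, SP110, HERC6, SAMD9L, UBE2L6, OAS1, XAF1 or IFI35 in these windows, and several of these genes rose as described below. Having no match does not mean having no response element: windows of OAS1 and XAF1 hold pairs of GAAA with another spacing. DDX60L, which had 2 matches, was called in no comparison. The windows of the effector genes held a median of 8 CG dinucleotides, against 14 over all windows.

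Between 15824804 and 25073821 reads per library were counted on genes. The libraries came from 2 alignment folders, as written in the headers of the files: one held the day 0 libraries of every genotype together with UHRF1-AID of day 4 (15 in all), the other the remaining 9. Reads on ERCC spike-in sequences made up 0.891% to 1.65% of the counts in those 9 libraries and were 0 in the other 15. The comparison of WT over the days and that of UHRF1-AID with WT on day 4 therefore cross the folders, whereas those of DNMT1-AID and the compound line with WT on day 4, and that of UHRF1-AID over the days, stay within 1 folder. The part of the folder in the results was not tested. Of the 10 epithelial markers, 8 were expressed (summed level 4400 to 9770 CPM, counts per 1000000 reads), and VIL1 and CEACAM5 were at or near 0. Summed leukocyte markers, 10 genes, stood between 0.664 and 2.07 CPM on day 0, and on day 4 between 1.05 and 1.86 in WT, 3.94 and 5.10 for UHRF1-AID, 2.05 and 2.80 for DNMT1-AID and 3.74 and 6.20 for the compound line, with PTPRC, CD3E, MS4A1 and NKG7 at or near 0. UHRF1 mRNA read 89.3, 81.2 and 50.1 CPM in WT on day 0 and 17.7, 24.4 and 34.6 on day 4, and DNMT1 mRNA 172, 179 and 76.5 and then 23.8, 24.4 and 46.1. The degron acts on protein, so mRNA does not check it.

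The effector genes rose over the 4 days in WT cells without any AID tag. Of the 45, 35 were called higher on day 4, 0 were called lower, 3 were tested and not called (IFITM2, DDX60L and TRIM14), and 7 had too few counts to be tested (IFI44L, OAS2, MX2, XAF1, SAMD9L, RTP4 and GBP1). A call here means an adjusted p under 0.05 by the quasi-likelihood test of edgeR, adjusted over all genes by the Benjamini-Hochberg method, and a log2 fold change beyond 1. Among all 13601 genes tested in this comparison, 730 (5.37%) were called higher. The median log2 fold change over all 45, in a fit of the 24 libraries together, was 2.55, against -0.03 over all genes of this comparison; with genes at 0 on day 0 set to their lower bound, and XAF1 and RTP4, at or under 3 counts in both groups, left out, it was 2.26. In 42 of the 45 genes every WT day 4 library lay above every WT day 0 library, which held for 15.9% of the 24193 genes with a count.

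The largest of these changes in WT began from levels near 0. IFI27 read 0.488, 0.766 and 0.616 CPM on day 0 and 60, 41.5 and 57.9 on day 4, a log2 fold change of 6.38 ± 0.24 (adjusted p = 2.50e-06). OAS1 read 0.635, 0.358 and 0.672 and then 40.8, 36.5 and 41.2 CPM (6.12 ± 0.22, adjusted p = 2.50e-06), and IFI44 read 0.244, 0.204 and 0.28 and then 17.3, 14.4 and 18.6 CPM (6.06 ± 0.24, adjusted p = 2.71e-06). IFI6, an inhibitor of apoptosis and of virus replication compartments, started higher, at 18.5, 19.7 and 21.8 CPM, and reached 1463, 1179 and 1522 CPM (6.10 ± 0.17, adjusted p = 9.54e-07). The libraries of the 2 days did not overlap for any of the 4. MX2, IFI44L and OAS2 stayed at 0 counts in every WT day 0 library, so that only a lower bound against 3 counts per library can be given: MX2 was at least 3.03-fold higher on day 4, IFI44L at least 2.65-fold and OAS2 at least 2.40-fold. SAMD9L, with 3 counts in the WT day 0 libraries together, was 8.40-fold higher (95% counting interval 2.51 to 44.0), and GBP1, with 2 counts, 8.40-fold (1.93 to 76.1).

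**Figure D1:**
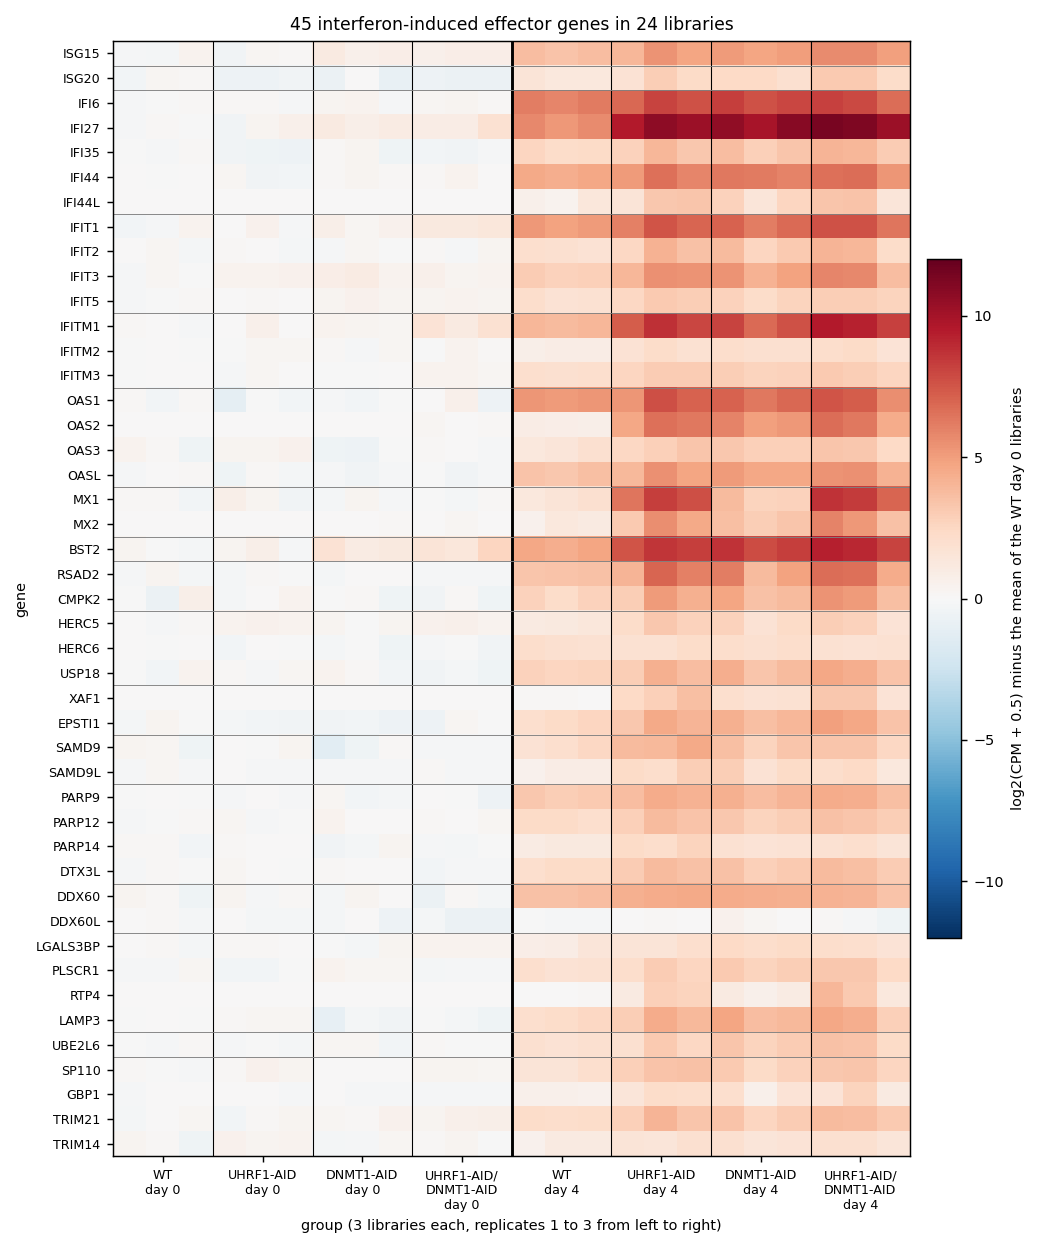
Level of each of the 45 effector genes (rows, grouped by family) in each of the 24 libraries (columns, 3 per group), as log2(CPM + 0.5) minus the mean of the 3 WT day 0 libraries. The left 12 columns are day 0, where BST2, IFI27, IFITM1 and IFIT1 stand above WT in the compound line, the WT day 4 columns rise in 42 of 45 rows without overlap, and most rows are darker still in the 9 columns of the tagged lines on day 4.

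Before auxin, few of these genes were called between the tagged lines and WT. In UHRF1-AID 0 of 34 tested effector genes were called in either direction by edgeR (0.0% of all genes were called higher), 4 had an unadjusted p under 0.05, and DESeq2 also called 0. In DNMT1-AID 0 of 33 were called (0.0% of all genes called higher), 5 had an unadjusted p under 0.05, and DESeq2 called 0. The log2 difference was above 0 for 18 of the 33, with a median of 0.01. The highest was that of BST2, at 1.50, with 126, 77 and 89 counts against 45, 30 and 23 in WT. IFI27 had 35, 27 and 35 counts against 10, 15 and 11. The compound line had 4 called higher of 34 tested, against 0.656% of all genes, namely BST2, IFI27, IFITM1 and IFIT1. BST2 read 5.62, 4.91 and 11.9 CPM there against 2.2, 1.53 and 1.29 in WT, a log2 fold change of 2.14 ± 0.40 (adjusted p = 0.0343). IFI27 was at 1.62, 1.64 and 3.38 against 0.488, 0.766 and 0.616 CPM (1.82 ± 0.40, adjusted p = 0.0476), IFITM1 at 7.5, 4.74 and 8.51 against 2.3, 2.09 and 1.79 (1.74 ± 0.26, adjusted p = 0.0171) and IFIT1 at 11.4, 11.8 and 13.3 against 3.71, 4.49 and 6.88 (1.28 ± 0.22, adjusted p = 0.0246). For each of the 4 genes the compound and WT libraries did not overlap. The count of 4 rested on each of 5 libraries: it was 0 without WT replicate 1 or 2 or compound replicate 1 or 3, and 1 without compound replicate 2.

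After 4 days of auxin, the effector genes stood higher in each tagged line than in WT cells treated alike. UHRF1-AID had 34 of the 45 called higher and DNMT1-AID 26, against 5.77% and 2.29% of all genes tested in these comparisons. The compound line had 30 called higher, against 9.21% of all genes. None of the 45 was called lower in any of the 3 lines. The median log2 difference from WT over all 45, in the fit of all 24 libraries, was 1.55 for UHRF1-AID, 1.41 for DNMT1-AID and 1.66 for the compound line, with medians over all genes between 0.00 and 0.03. Every library of the line lay above every WT library in 43 of the 45 genes for UHRF1-AID (15.3% of all genes with a count), in 43 for DNMT1-AID (10.3%) and in 42 for the compound line (20.2%). The 3 comparisons share the WT libraries.

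In UHRF1-AID and in the compound line the called genes covered every family. DNMT1-AID had no call among the PARP and DTX genes, among ISG20, RSAD2 and CMPK2, or among TRIM21, TRIM14 and SP110. GBP1 had too few counts to be tested there. In all, 19 of the 45 were called in each of the 3 lines, 40 in at least 1, and 5 in none (IFITM3, HERC6, DDX60, DDX60L and TRIM14). The counts of called genes depended on single libraries: without compound replicate 1 or 2 the compound count was 18 or 16, and without WT replicate 1, 2 or 3 it was 18, 14 or 19. With each library left out in turn, UHRF1-AID had 23 to 40 genes called and DNMT1-AID 18 to 33.

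**Figure D2:**
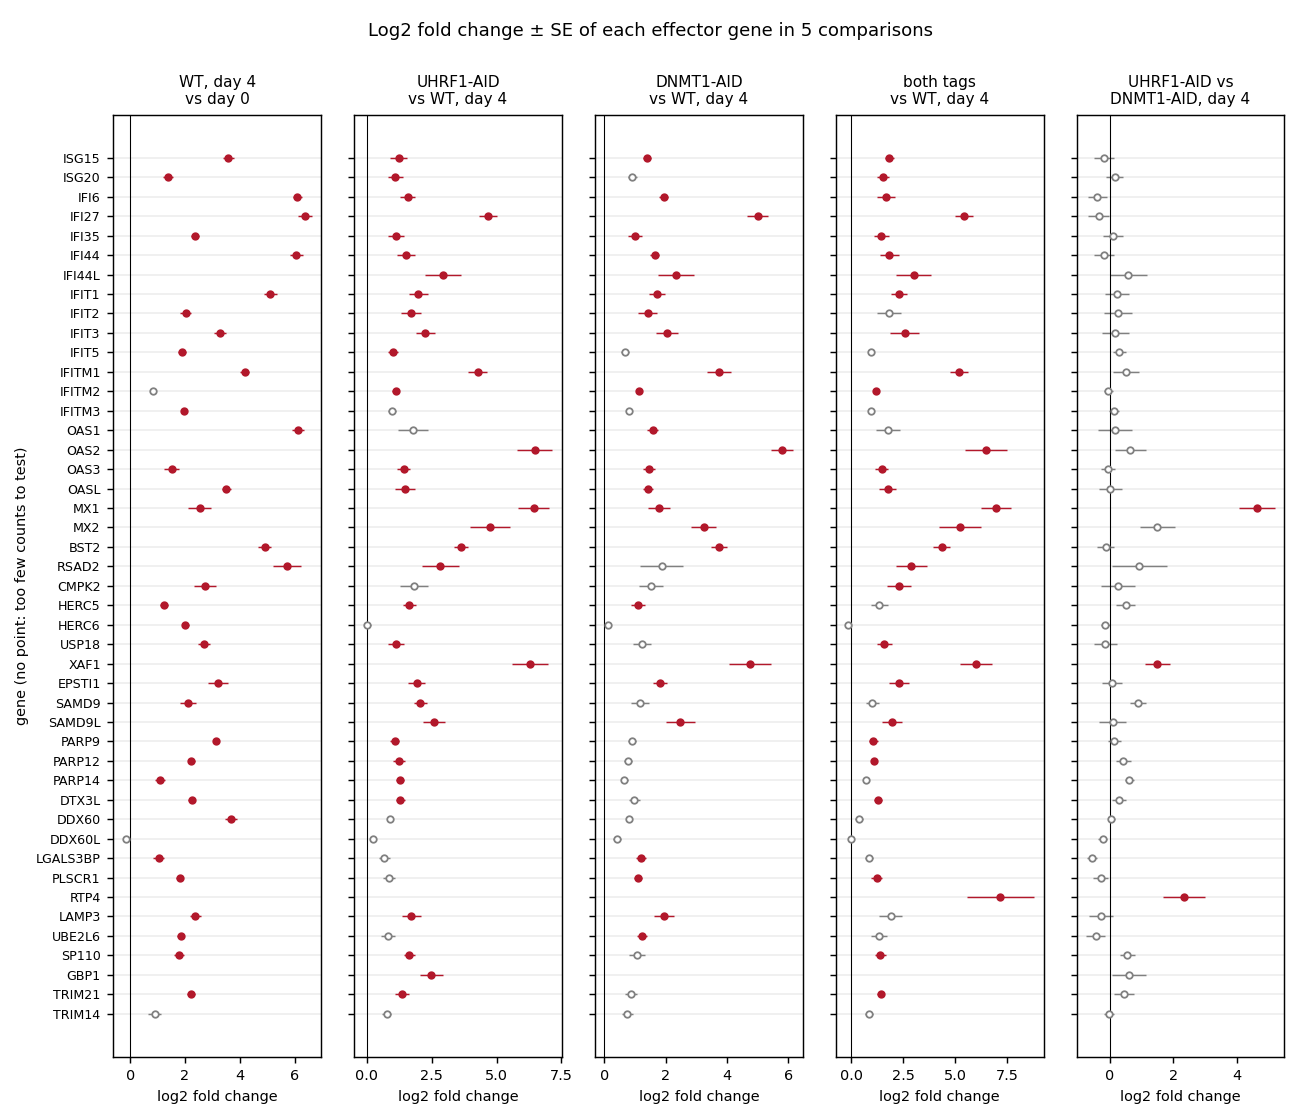
Log2 fold change with its SE (horizontal bar) of each effector gene (rows) in 5 comparisons (panels); filled points were called (adjusted p under 0.05 and log2 fold change beyond 1), open points were tested and not called, and a row without a point had too few counts. In the WT day panel and the 3 panels of tagged lines against WT on day 4 all filled points lie to the right of 0, and in the panel of UHRF1-AID against DNMT1-AID only MX1, XAF1 and RTP4 are filled.

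In the ISG15 system, ISG15, the ubiquitin-like modifier itself (ENSG00000187608, chr1:1001138-1014540, + strand), read 82.2, 76.5 and 120 CPM in WT on day 0, 1227, 959 and 1178 in WT on day 4, and then 1445, 3794 and 2486 CPM for UHRF1-AID, 3213, 2513 and 3026 for DNMT1-AID and 4532, 4623 and 2779 for the compound line. All 9 libraries of the tagged lines lay above the 3 of WT. The rise over the days in WT was 3.57 ± 0.20 (adjusted p = 1.48e-05) on the log2 scale, and the further difference from WT was 1.24 ± 0.32 (adjusted p = 0.0412) in UHRF1-AID, 1.38 ± 0.12 (adjusted p = 6.22e-06) in DNMT1-AID and 1.83 ± 0.21 (adjusted p = 0.000301) in the compound line. UBE2L6, the E2 enzyme that passes ISG15 on to its targets, read 32.6, 30.3 and 37.1 CPM and then 128, 110 and 125 in WT, with 129, 302 and 193 CPM for UHRF1-AID, 346, 215 and 286 for DNMT1-AID and 378, 364 and 163 for the compound line on day 4. It rose in WT (1.84 ± 0.12, adjusted p = 2.82e-05) and in DNMT1-AID against WT (1.23 ± 0.16, adjusted p = 0.00182), and was not called in UHRF1-AID (0.82 ± 0.28, adjusted p = 0.0885) or the compound line (1.32 ± 0.38, adjusted p = 0.0563). USP18, the protease that removes ISG15 and also dampens receptor signalling, went from 6.5, 5.36 and 9.51 to 49.4, 42.9 and 47.7 CPM in WT (2.69 ± 0.21, adjusted p = 7.51e-05). On day 4 USP18 stood at 56.8, 146 and 97.1 CPM for UHRF1-AID, 156, 74 and 99.5 for DNMT1-AID and 182, 157 and 80.1 for the compound line, above all WT libraries, and was called in UHRF1-AID (1.13 ± 0.31, adjusted p = 0.0468) and the compound line (1.59 ± 0.35, adjusted p = 0.0272), whereas DNMT1-AID missed the threshold (1.24 ± 0.29, adjusted p = 0.0668).

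HERC6 was the exception in this system. This gene of the HERC ligase family, a neighbour of HERC5 on chromosome 4, rose in WT from 9.23, 8.33 and 9.01 to 38.9, 35.7 and 33.6 CPM (2.00 ± 0.13, adjusted p = 2.78e-05). On day 4 the tagged lines read 31.8, 33.6 and 41.8 CPM for UHRF1-AID, 40.9, 35.9 and 40.5 for DNMT1-AID and 33.5, 29.9 and 32.4 for the compound line. UHRF1-AID and DNMT1-AID overlapped with WT, and every compound library lay below the lowest WT library. The differences from WT were 0.02 ± 0.14 (adjusted p = 0.936) in UHRF1-AID, 0.12 ± 0.11 (adjusted p = 0.545) in DNMT1-AID and -0.17 ± 0.12 (adjusted p = 0.255) in the compound line, the lowest of the 43 or 44 effector genes tested in each line. HERC5, the main ligase for ISG15 in human cells, was called in UHRF1-AID (log2 difference 1.64 ± 0.24, adjusted p = 0.00366) and DNMT1-AID (1.11 ± 0.23, adjusted p = 0.0307).

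All 5 IFI genes were called in each of the 3 lines. IFI6 reached 2399, 5636 and 4135 CPM for UHRF1-AID, 6357, 4172 and 5322 for DNMT1-AID and 5899, 5074 and 2167 for the compound line on day 4, against 1463, 1179 and 1522 in WT. Its difference from WT was 1.58 ± 0.29 (adjusted p = 0.0117) in UHRF1-AID, 1.93 ± 0.16 (adjusted p = 2.25e-05) in DNMT1-AID and 1.67 ± 0.44 (adjusted p = 0.0442) in the compound line. IFI27 (ENSG00000165949, chr14:94104836-94116698, + strand), a small hydrophobic protein of mitochondria and the nuclear envelope, reached 792, 1854 and 1336 CPM for UHRF1-AID, 1819, 1095 and 2162 for DNMT1-AID and 2915, 2568 and 1364 for the compound line. No library of a tagged line fell below 792 CPM, while the highest WT library on day 4 read 60 CPM, and the differences were 4.68 ± 0.35 (adjusted p = 0.000307) in UHRF1-AID, 5.00 ± 0.35 (adjusted p = 0.00138) in DNMT1-AID and 5.43 ± 0.42 (adjusted p = 0.000744) in the compound line.

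IFI35, a protein that interacts with other interferon-induced factors, read 20.3, 19.6 and 24 and 127, 102 and 103 CPM in WT on the 2 days (2.36 ± 0.13, adjusted p = 1.48e-05), with 149, 350 and 209 CPM for UHRF1-AID, 283, 160 and 220 for DNMT1-AID and 372, 354 and 175 for the compound line. Its differences from WT were smaller, 1.13 ± 0.30 (adjusted p = 0.0408) in UHRF1-AID, 1.00 ± 0.22 (adjusted p = 0.0436) in DNMT1-AID and 1.45 ± 0.35 (adjusted p = 0.0348) in the compound line, and that of DNMT1-AID lay at the fold threshold. IFI44, a cytoplasmic protein with antiviral activity, read 25.1, 70.2 and 43.8 CPM for UHRF1-AID, 57.5, 54.4 and 44.4 for DNMT1-AID and 69.7, 79.4 and 28.9 for the compound line, against 17.3, 14.4 and 18.6 in WT. The IFI44 differences were 1.50 ± 0.35 (adjusted p = 0.0262) in UHRF1-AID, 1.64 ± 0.14 (adjusted p = 3.51e-06) in DNMT1-AID and 1.83 ± 0.45 (adjusted p = 0.0373) in the compound line. Its neighbour IFI44L, at 4, 3 and 13 counts in WT on day 4, stayed under 5 CPM in all libraries.

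**Figure D3:**
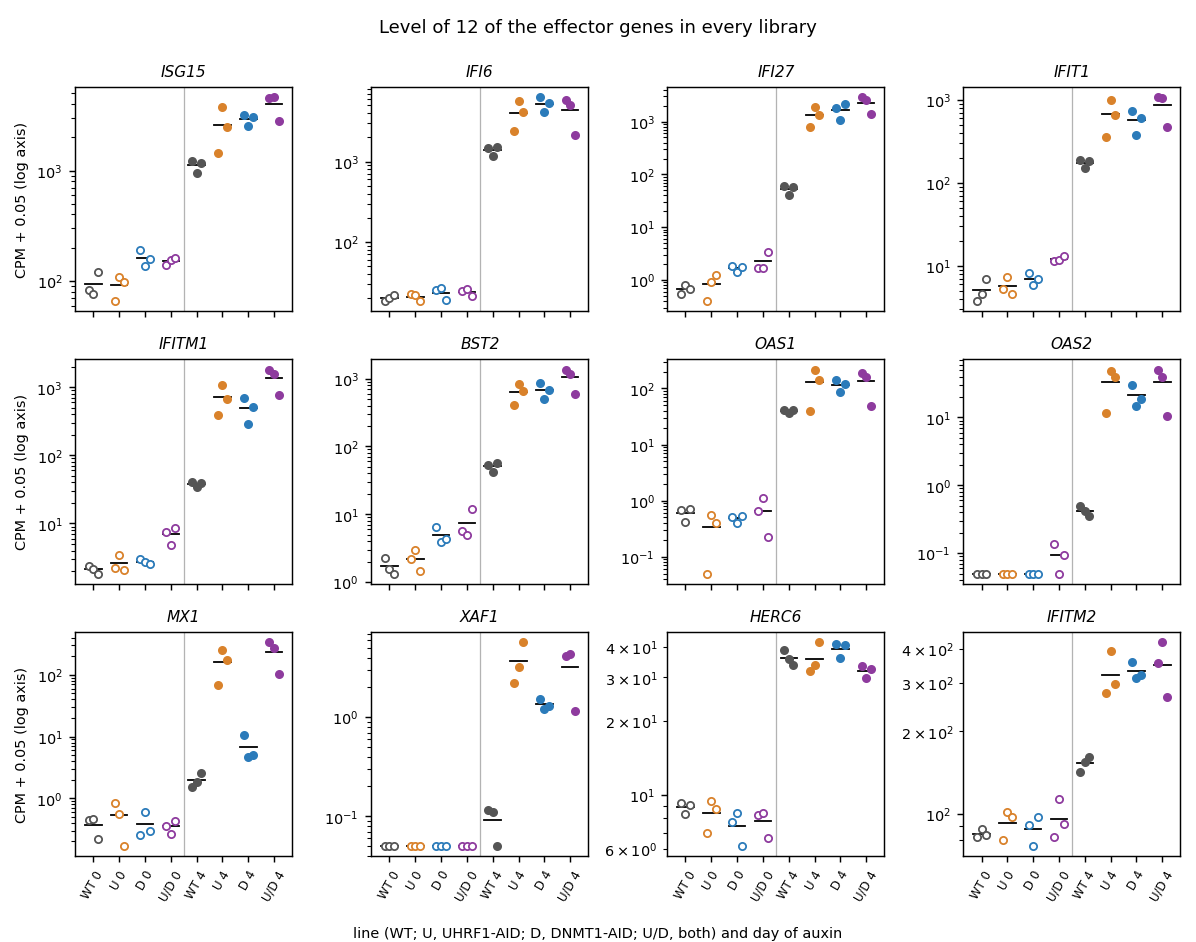
CPM + 0.05 (log axis) of 12 of the effector genes in every library, by line and day; open points are day 0 libraries, filled points day 4 libraries and black bars the group means. ISG15, IFI6, IFI27, IFIT1, IFITM1 and BST2 step up in WT and again in each tagged line, OAS2 and XAF1 leave the floor mainly in the tagged lines, MX1 stays lower in DNMT1-AID than in the other 2 tagged lines, and HERC6 steps up once.

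The IFIT genes lie together on chromosome 10 and encode proteins that bind viral RNA with foreign 5′ ends. IFIT1, which recognizes RNA caps that lack 2′-O methylation, read 3.71, 4.49 and 6.88 CPM in WT on day 0 and 192, 152 and 185 on day 4 (5.12 ± 0.23, adjusted p = 6.58e-06). The tagged lines read 359, 1015 and 669 CPM for UHRF1-AID, 748, 382 and 607 for DNMT1-AID and 1086, 1051 and 475 for the compound line. The differences from WT were 1.99 ± 0.35 (adjusted p = 0.0111) in UHRF1-AID, 1.72 ± 0.27 (adjusted p = 0.0214) in DNMT1-AID and 2.31 ± 0.39 (adjusted p = 0.0118) in the compound line, with no overlap between libraries. IFIT3, the partner that stabilizes IFIT1, went from 1.12, 1.53 and 1.18 to 14.5, 11.4 and 12.2 CPM in WT (3.28 ± 0.21, adjusted p = 2.82e-05) and reached 27.9, 78.5 and 71.4 CPM for UHRF1-AID, 75.6, 31.3 and 50.4 for DNMT1-AID and 105, 97.6 and 22.6 for the compound line. It was called in each line, at 2.26 ± 0.38 (adjusted p = 0.00836) in UHRF1-AID, 2.05 ± 0.35 (adjusted p = 0.0281) in DNMT1-AID and 2.57 ± 0.69 (adjusted p = 0.0489) in the compound line, and its lowest tagged-line library was compound replicate 3.

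IFIT5, a family member that binds RNA with 5′ phosphates, began higher and moved less. It read 24.4, 27 and 30.6 CPM and then 118, 92.5 and 98.3 CPM in WT (1.89 ± 0.13, adjusted p = 4.75e-05), and 151, 247 and 210 CPM for UHRF1-AID, 190, 131 and 172 for DNMT1-AID and 216, 214 and 174 for the compound line on day 4. Only UHRF1-AID passed both thresholds, at 1.01 ± 0.18 (adjusted p = 0.00589); DNMT1-AID (0.68 ± 0.14, adjusted p = 0.0155) and the compound line (0.97 ± 0.11, adjusted p = 1.37e-06) had adjusted p-values under 0.05 with log2 differences below 1. IFIT2 was called in UHRF1-AID (1.69 ± 0.39, adjusted p = 0.0254) and DNMT1-AID (1.41 ± 0.32, adjusted p = 0.0465) and not in the compound line (1.80 ± 0.58, adjusted p = 0.0774), and 10.3% of its exon bases overlap another gene.

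The IFITM genes, a cluster on chromosome 11 whose products block virus entry at membranes, differed among themselves. IFITM1 (ENSG00000185885, chr11:313506-315272, + strand) read 2.3, 2.09 and 1.79 CPM in WT on day 0 and 40.3, 34.4 and 39.2 on day 4 (4.18 ± 0.17, adjusted p = 2.71e-06). In the tagged lines it reached 390, 1081 and 671 CPM for UHRF1-AID, 700, 291 and 511 for DNMT1-AID and 1821, 1553 and 772 for the compound line, and the 9 libraries lay far above the 3 of WT. The differences from WT were 4.27 ± 0.38 (adjusted p = 0.000735) in UHRF1-AID, 3.73 ± 0.39 (adjusted p = 0.00973) in DNMT1-AID and 5.19 ± 0.43 (adjusted p = 0.00101) in the compound line. IFITM2 and IFITM3 were already expressed on day 0. IFITM2 read 82, 88.1 and 83.8 and 143, 154 and 162 CPM in WT, which was not called (0.83 ± 0.10, adjusted p = 0.000636), and 275, 393 and 296 CPM for UHRF1-AID, 358, 313 and 320 for DNMT1-AID and 356, 423 and 266 for the compound line, which was called in each line, at 1.11 ± 0.15 (adjusted p = 0.00128) in UHRF1-AID, 1.12 ± 0.09 (adjusted p = 3.70e-06) in DNMT1-AID and 1.20 ± 0.15 (adjusted p = 0.000119) in the compound line.

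In the tagged lines against WT on day 4, IFITM2 and IFITM3 parted only at the fold threshold, with adjusted p-values under 0.05 for both genes. Over the days in WT the log2 rise of IFITM3 was larger than that of IFITM2. IFITM3, which acts in late endosomes, was called in WT over the days and in no tagged line against WT on day 4. It rose in WT from 296, 307 and 307 to 1211, 1137 and 1264 CPM (1.97 ± 0.11, adjusted p = 1.74e-05). The tagged lines read 1764, 2569 and 2541 CPM for UHRF1-AID, 2299, 1933 and 2025 for DNMT1-AID and 2657, 2358 and 1866 for the compound line, above WT in all 9 libraries, with differences below the fold threshold of 1 and adjusted p-values under 0.05: 0.96 ± 0.15 (adjusted p = 0.00297) in UHRF1-AID, 0.80 ± 0.10 (adjusted p = 0.000221) in DNMT1-AID and 0.94 ± 0.12 (adjusted p = 4.53e-06) in the compound line. The annotated exons of IFITM1 and IFITM2 overlap on the same strand (32.5% and 22.7% of their exon bases), and 21.3% of the IFITM3 exon bases overlap an antisense gene. Reads in those stretches cannot be assigned to 1 gene, and the strand setting of the counting was not stated.

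BST2 (ENSG00000130303, chr19:17402939-17405648, - strand), or tetherin, which holds budding virions on the cell surface, read 2.2, 1.53 and 1.29 CPM in WT on day 0 and 53.8, 42.3 and 57.6 on day 4 (4.90 ± 0.23, adjusted p = 6.47e-06). On day 4 it stood at 405, 817 and 654 CPM for UHRF1-AID, 869, 494 and 687 for DNMT1-AID and 1355, 1159 and 596 for the compound line. No tagged-line library overlapped with WT, and the differences were 3.64 ± 0.27 (adjusted p = 0.000172) in UHRF1-AID, 3.74 ± 0.25 (adjusted p = 0.000527) in DNMT1-AID and 4.35 ± 0.41 (adjusted p = 0.00166) in the compound line.

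The OAS family senses double-stranded RNA and makes 2′-5′ oligoadenylates that activate RNase L. OAS1, OAS3 and OAS2 are neighbours on chromosome 12. OAS1 reached 40.1, 217 and 140 CPM for UHRF1-AID, 144, 85 and 122 for DNMT1-AID and 190, 163 and 49 for the compound line on day 4, against 40.8, 36.5 and 41.2 in WT. UHRF1-AID replicate 1 fell within the WT libraries, and OAS1 was called in DNMT1-AID (1.57 ± 0.18, adjusted p = 0.00101) and not in UHRF1-AID (1.78 ± 0.57, adjusted p = 0.0809) or the compound line (1.77 ± 0.58, adjusted p = 0.0791). OAS2 behaved differently. It had 7, 6 and 5 counts in the WT day 4 libraries (0.45, 0.364 and 0.308 CPM), and 11.7, 47.8 and 39.7 CPM for UHRF1-AID, 30.2, 14.6 and 18.4 for DNMT1-AID and 50.9, 40 and 10.5 for the compound line, differences of 6.48 ± 0.68 (adjusted p = 0.00133) in UHRF1-AID, 5.80 ± 0.36 (adjusted p = 2.32e-06) in DNMT1-AID and 6.48 ± 1.00 (adjusted p = 0.00902) in the compound line. On day 0 OAS2 had 0 counts in 10 of the 12 libraries.

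OASL, a family member without the synthetase activity that enhances RIG-I signalling, read 4.49, 5.01 and 5.37 CPM and then 58.3, 49.6 and 64 CPM in WT (3.51 ± 0.15, adjusted p = 4.70e-06). It stood at 80.1, 247 and 140 CPM for UHRF1-AID, 191, 131 and 139 for DNMT1-AID and 234, 241 and 98 for the compound line on day 4. OASL was called in all 3 lines, at 1.48 ± 0.38 (adjusted p = 0.0405) in UHRF1-AID, 1.43 ± 0.15 (adjusted p = 0.000359) in DNMT1-AID and 1.75 ± 0.42 (adjusted p = 0.0349) in the compound line. OAS3 was also called in all 3 lines, with log2 differences between 1.43 and 1.46.

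For PARP9, PARP12 (ADP-ribosyltransferases of the PARP family) and DTX3L, the log2 rise in WT was larger than the log2 difference of any tagged line from WT, and for PARP14 it was 1.09 ± 0.17 (adjusted p = 0.00195), below its UHRF1-AID difference. PARP9 read 12.6, 13.6 and 13 CPM on day 0 and 125, 106 and 117 on day 4 in WT (3.13 ± 0.12, adjusted p = 2.50e-06), and 172, 296 and 248 CPM for UHRF1-AID, 253, 171 and 225 for DNMT1-AID and 289, 269 and 166 for the compound line. It was called in UHRF1-AID (1.08 ± 0.19, adjusted p = 0.00494) and the compound line (1.06 ± 0.22, adjusted p = 0.0129), and the DNMT1-AID difference lay below the fold threshold (0.90 ± 0.13, adjusted p = 0.00136). DTX3L, a ubiquitin ligase that forms a complex with PARP9 and is transcribed from the opposite strand next to it, read 13.9, 17.3 and 15.3 and 65.8, 78.4 and 78.5 CPM in WT (2.24 ± 0.14, adjusted p = 2.18e-05) and 132, 223 and 180 CPM for UHRF1-AID, 184, 113 and 142 for DNMT1-AID and 219, 191 and 129 for the compound line. The DTX3L differences were 1.30 ± 0.18 (adjusted p = 0.00213) in UHRF1-AID, 0.99 ± 0.17 (adjusted p = 0.0088) in DNMT1-AID and 1.28 ± 0.21 (adjusted p = 0.00307) in the compound line, the DNMT1-AID value again under the threshold of 1.

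PARP12, which restricts several RNA viruses, went from 14.9, 15.2 and 18 to 82.4, 78.6 and 67.1 CPM in WT (2.23 ± 0.13, adjusted p = 1.79e-05). It read 120, 229 and 179 CPM for UHRF1-AID, 157, 106 and 128 for DNMT1-AID and 194, 163 and 130 for the compound line on day 4, without overlap with WT. Its differences were 1.25 ± 0.22 (adjusted p = 0.00632) in UHRF1-AID, 0.78 ± 0.14 (adjusted p = 0.00481) in DNMT1-AID and 1.10 ± 0.14 (adjusted p = 7.27e-05) in the compound line. None of the 4 PARP and DTX genes was called in DNMT1-AID. PARP14 was called in UHRF1-AID (1.30 ± 0.15, adjusted p = 0.000608), and its differences in the other lines were 0.65 and 0.73.

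The other effectors with the smallest p-values were TRIM21, PLSCR1 and DDX60. TRIM21, an intracellular receptor for antibody-coated virus, read 7.91, 9.81 and 11.1 and 46.3, 44 and 45.2 CPM in WT (2.22 ± 0.15, adjusted p = 3.62e-05) and 72.8, 166 and 102 CPM for UHRF1-AID, 108, 59.7 and 81.5 for DNMT1-AID and 142, 132 and 87.4 for the compound line. It was called in UHRF1-AID (1.37 ± 0.28, adjusted p = 0.0159) and the compound line (1.42 ± 0.17, adjusted p = 0.000145), and not in DNMT1-AID (0.89 ± 0.19, adjusted p = 0.0311). PLSCR1, a phospholipid scramblase with antiviral activity, rose in WT from 33.2, 33 and 40.8 to 141, 116 and 124 CPM (1.81 ± 0.13, adjusted p = 4.68e-05). It read 152, 304 and 217 CPM for UHRF1-AID, 319, 222 and 278 for DNMT1-AID and 349, 347 and 189 for the compound line on day 4, and was called in DNMT1-AID (1.11 ± 0.13, adjusted p = 0.000256) and the compound line (1.22 ± 0.28, adjusted p = 0.0264), the UHRF1-AID difference being 0.86 ± 0.23 (adjusted p = 0.0389).

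DDX60, a helicase-like factor of RNA sensing, was called in WT and, as with HERC6, in no tagged line against WT on day 4. Unlike HERC6, it lay above WT in every UHRF1-AID and DNMT1-AID library. It went from 5.52, 5.01 and 3.02 to 55.4, 56.1 and 63.1 CPM (3.66 ± 0.22, adjusted p = 2.08e-05) in WT and read 95, 108 and 114 CPM for UHRF1-AID, 107, 102 and 96.1 for DNMT1-AID and 89, 82.7 and 53 for the compound line on day 4. The compound libraries overlapped with WT, and the differences were 0.89 ± 0.12 (adjusted p = 0.00128) in UHRF1-AID, 0.81 ± 0.10 (adjusted p = 0.000128) in DNMT1-AID and 0.37 ± 0.18 (adjusted p = 0.15) in the compound line. Its neighbour DDX60L, named after its values were seen, was not called in WT (-0.14 ± 0.13, adjusted p = 0.432) and stood between 29 and 69.7 CPM in all 24 libraries.

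**Figure D4:**
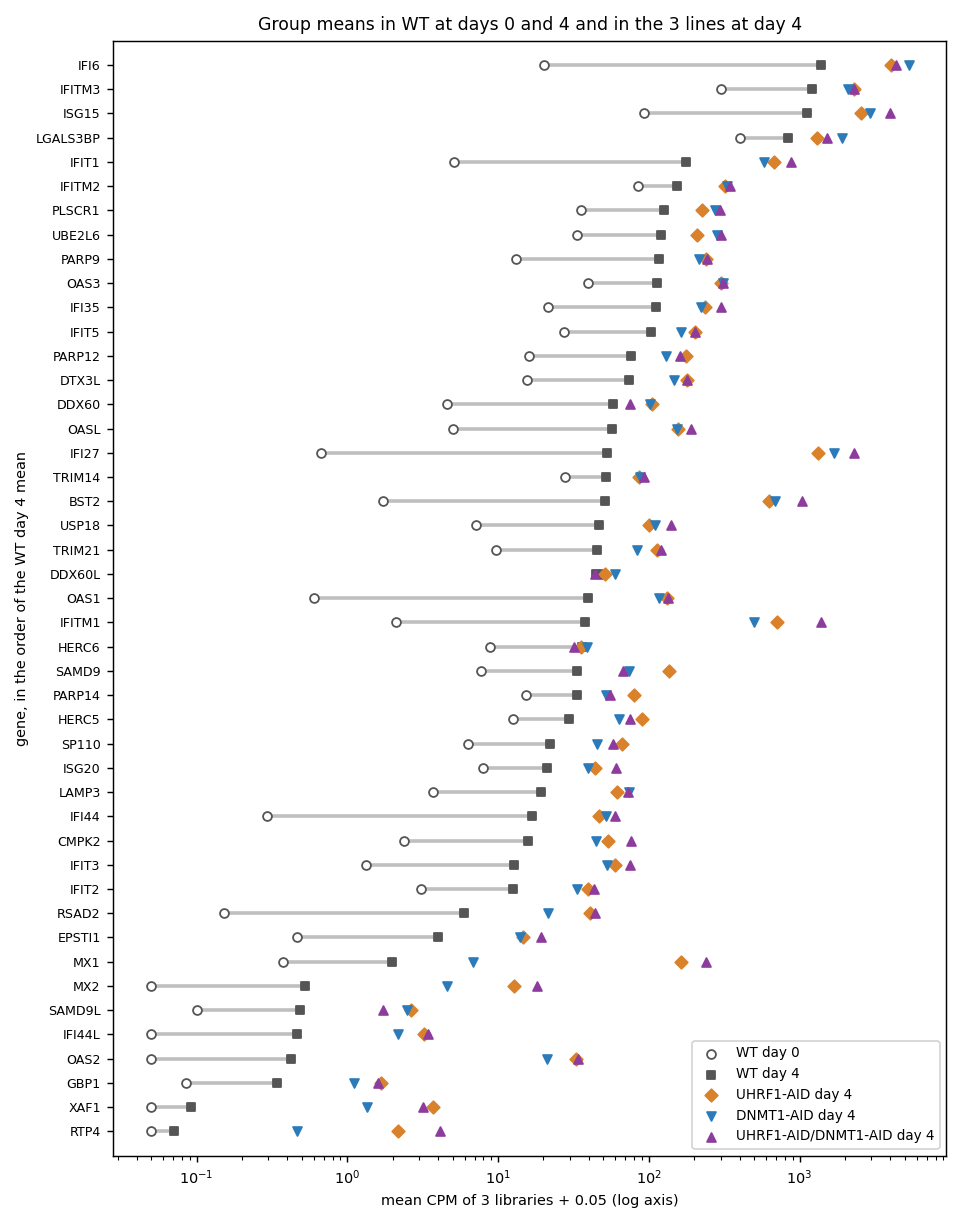
Mean CPM of the 3 libraries (plus 0.05, log axis) of each effector gene, in the order of its WT day 4 mean, in WT on day 0 (open circle), WT on day 4 (square), UHRF1-AID (diamond), DNMT1-AID (downward triangle) and the compound line (upward triangle) on day 4; the grey line spans the WT change. For IFI6 and OAS1 the grey line is the longer step, for IFITM1, MX1, OAS2 and MX2 the step from the WT square to the tagged lines is as long or longer for at least 1 line, and for HERC6 and DDX60L the day 4 symbols fall together.

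Several genes low in WT on day 4 stood higher in the tagged lines, outside the 24 genes with the smallest p-values, and are named after their values were seen. XAF1, a pro-apoptotic factor, had 1, 1 and 0 counts in the WT day 4 libraries and 0 in every day 0 library of all genotypes. On day 4 it read 2.15, 3.15 and 5.69 CPM for UHRF1-AID, 1.49, 1.16 and 1.26 for DNMT1-AID and 4.07, 4.26 and 1.1 for the compound line. Against the 2 WT counts the ratio of CPM was 89.7-fold in UHRF1-AID (95% counting interval 24.6 to 745), 31.4-fold in DNMT1-AID (8.35 to 265) and 75.2-fold in the compound line (20.5 to 627). Exon overlap with the antisense gene PRAL covers 38.3% of the XAF1 exon bases. RTP4, a chaperone of receptor trafficking, had 1 count in the 3 WT libraries, and read 0.525, 3.15 and 2.66 CPM for UHRF1-AID, 0.536, 0.243 and 0.463 for DNMT1-AID and 7.52, 4 and 0.734 for the compound line, ratios of 101-fold (17.8 to 4020), 20.0-fold (3.19 to 827) and 196-fold (34.7 to 7770). These intervals cover counting error only. RSAD2 (viperin), which makes a chain-terminating nucleotide, read 0.0488, 0.255 and 0 CPM in WT on day 0 and 5.46, 6 and 6.17 on day 4 (5.72 ± 0.52, adjusted p = 0.000156). On day 4 it read 9.4, 73.6 and 39.5 CPM for UHRF1-AID, 40.6, 7.73 and 15.8 for DNMT1-AID and 60.8, 57.6 and 12.4 for the compound line. RSAD2 was called in UHRF1-AID (2.83 ± 0.71, adjusted p = 0.0432) and the compound line (2.90 ± 0.73, adjusted p = 0.0413) and not in DNMT1-AID (1.87 ± 0.69, adjusted p = 0.203).

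MX1 separated the single-tagged lines more than any other of the 45. MX1 (ENSG00000157601, chr21:41420304-41459214, + strand) encodes a dynamin-like GTPase that blocks influenza and other viruses. It read 0.391, 0.409 and 0.168 CPM in WT on day 0 and 1.48, 1.82 and 2.53 on day 4 (2.53 ± 0.41, adjusted p = 0.00218). In the tagged lines it stood at 67.2, 250 and 175 CPM for UHRF1-AID, 10.7, 4.57 and 4.89 for DNMT1-AID and 340, 272 and 103 for the compound line on day 4. Every UHRF1-AID library lay above every DNMT1-AID library, and all DNMT1-AID libraries lay above WT. The differences from WT were 6.43 ± 0.61 (adjusted p = 0.00142) in UHRF1-AID, 1.79 ± 0.36 (adjusted p = 0.013) in DNMT1-AID and 6.94 ± 0.72 (adjusted p = 0.00249) in the compound line. Its neighbour MX2, a GTPase that restricts HIV-1, read 0.193, 0.667 and 0.555 CPM in WT and 3.96, 22.8 and 11.5 CPM for UHRF1-AID, 5.71, 3.35 and 4.49 for DNMT1-AID and 30.3, 18.2 and 5.32 for the compound line.

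UHRF1-AID and DNMT1-AID were compared directly on day 4 to ask which effectors responded unlike between the single depletions. Of the 45 tested, 3 were called higher in UHRF1-AID, against 2.88% of all genes, and 0 were called higher in DNMT1-AID. These were MX1, at 4.61 ± 0.57 (adjusted p = 0.00476), RTP4, at 2.34 ± 0.66 (adjusted p = 0.0437), and XAF1, at 1.50 ± 0.39 (adjusted p = 0.0318). The comparison crosses the folders. By edgeR 8 of the 45 had an unadjusted p under 0.05, and the median log2 difference was 0.16. Without UHRF1-AID replicate 3, DNMT1-AID replicate 2 or DNMT1-AID replicate 3 the count was 1 each time, and MX1 was the gene called in every fit that left out a library. With the replicate number as a block the count was also 1. PARP14 (0.62 ± 0.15, adjusted p = 0.0222), SAMD9 (0.88 ± 0.25, adjusted p = 0.0469) and LGALS3BP (-0.56 ± 0.15, adjusted p = 0.0376) had adjusted p-values under 0.05 below the fold threshold, with LGALS3BP the higher in DNMT1-AID. For the rest the test does not show that the lines were alike: for IFI27 the log2 difference was -0.34 ± 0.33 (adjusted p = 0.518) and for ISG15 -0.17 ± 0.30 (adjusted p = 0.735).

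The rise over the days was then tested for being larger in each tagged line than in WT, by the difference of the 2 day effects. In UHRF1-AID 15 of the 45 passed, against 1.81% of all genes, in DNMT1-AID 7, against 0.132%, and in the compound line 15, against 3.46%. None was called smaller than in WT. IFI27 and IFITM1 were the 2 called in all 3 lines: the day effect of IFI27 exceeded that of WT by 4.26 ± 0.74 (adjusted p = 0.0133), 3.64 ± 0.51 (adjusted p = 0.0121) and 3.57 ± 0.78 (adjusted p = 0.0137) in UHRF1-AID, DNMT1-AID and the compound line, and that of IFITM1 by 3.96 ± 0.53 (adjusted p = 0.00515), 3.35 ± 0.42 (adjusted p = 0.0117) and 3.41 ± 0.52 (adjusted p = 0.0026). BST2, called in UHRF1-AID (3.29 ± 0.48, adjusted p = 0.00622), exceeded WT by 2.22 ± 0.39 (adjusted p = 0.0567) in DNMT1-AID and 2.16 ± 0.67 (adjusted p = 0.0599) in the compound line. OAS2, MX2, XAF1 and IFI44L had 0 counts in WT on day 0. They had at most 2 in any day 0 library of a tagged line, and were tested and not called here. The fitted excess of OAS2 was 6.47 in UHRF1-AID and 5.81 in DNMT1-AID, sizes that rest on 0 counts in WT on day 0. Why these genes were not called was not tested. The median excess over the 45, in the fit of all 24 libraries, was 1.61, 1.24 and 1.49. HERC6 stood at 0.09, 0.40 and -0.02 in the fits of the single comparisons.

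These counts moved with single libraries. For UHRF1-AID the 15 became 6, 2, 7 and 6 without WT day 0 replicates 1 and 2 and WT day 4 replicates 1 and 2, 9, 7 and 4 without UHRF1-AID day 0 replicates 1, 2 and 3, 29 without UHRF1-AID day 4 replicate 1 and 8 without replicate 3. For DNMT1-AID the 7 became 0 and 11 without WT day 0 replicates 2 and 3, and 4 and 3 without WT day 4 replicates 1 and 2. For the compound line the 15 became 8 without WT day 0 replicate 2, 9 without WT day 4 replicate 2 and 30 without compound day 4 replicate 3. IFITM1 and BST2 were called in every such fit for UHRF1-AID, and ISG20, IFI35, IFITM1, USP18, DTX3L and PLSCR1 for the compound line.

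Within the folder that holds both days, UHRF1-AID cells had 44 of the 45 called higher on day 4 than on day 0, all but DDX60L (0.28 ± 0.13, adjusted p = 0.0963), against 12.1% of all genes. The count was 43 or 44 with any 1 library left out. IFI27 rose by 10.68 ± 0.49 (adjusted p = 5.80e-06) on the log2 scale, BST2 by 8.23 ± 0.38 (adjusted p = 5.50e-06), IFITM1 by 8.18 ± 0.47 (adjusted p = 1.26e-05), IFI6 by 7.65 ± 0.36 (adjusted p = 5.80e-06) and ISG15 by 4.86 ± 0.38 (adjusted p = 4.71e-05). Genes without a count in the 3 UHRF1-AID day 0 libraries gave lower bounds: OAS2 was at least 234-fold higher on day 4, MX2 at least 90.5-fold, XAF1 at least 26.0-fold, IFI44L at least 22.4-fold and RTP4 at least 15.0-fold. The median over the 45 was 4.26, or 4.09 with those 5 genes at their bounds. This rise includes what WT cells showed over the same days.

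Within each tagged group on day 4 the effector genes moved together by library. UHRF1-AID replicate 1 was the lowest of its group for 40 of the 45 genes, DNMT1-AID replicate 2 for 41 and compound replicate 3 for 44. Summed over the 45, the level was 11260, 22840 and 18070 CPM for UHRF1-AID, 22280, 15400 and 19590 for DNMT1-AID and 27080, 24860 and 13830 for the compound line. WT read 6556, 5806 and 7043 on day 4 and between 1240 and 1332 on day 0. The lowest tagged-line sum was thus above the highest of WT. In bulk RNA, a share of responding cells and the level per responding cell cannot be told apart.

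Per kilobase of exon, IFI6 had the highest mean level of the 45 in all 4 genotypes on day 4, at 1600 CPM per kb for WT, 4690 for UHRF1-AID, 6110 for DNMT1-AID and 5060 for the compound line. ISG15 and IFITM3 followed in each, and XAF1 was the lowest in WT and DNMT1-AID. On day 0 IFITM3 led in all genotypes, at 225 CPM per kb in WT, before LGALS3BP and ISG15 in WT and UHRF1-AID. IFITM1 ranked below IFITM2 in WT on day 4 and above it in the 3 tagged lines.

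Another 51 genes of the interferon pathway (ligands, receptors, kinases, transcription factors, sensors and adaptors, and feedback inhibitors) were read beside the effectors. In WT 9 of the 36 tested were called higher over the days, against 5.37% of all genes. Against WT on day 4 the count was 8 of 38 tested for UHRF1-AID (5.77% of all genes), 6 of 37 for DNMT1-AID (2.29%) and 9 of 40 for the compound line (9.21%), with 0 called lower. Beyond the day effect of WT the counts were 4 (1.81%), 1 (0.132%) and 4 (3.46%). None of the 6 receptors or 3 kinases was called in a tagged line against WT on day 4. IRF7, the transcription factor that amplifies interferon production, read 6.69, 7.61 and 5.43 and 58.3, 58.6 and 65.2 CPM in WT and 135, 208 and 161 CPM for UHRF1-AID, 168, 121 and 136 for DNMT1-AID and 237, 231 and 181 for the compound line, and was called in all 3 lines, at 1.51 ± 0.16 (adjusted p = 0.00036) in UHRF1-AID, 1.23 ± 0.12 (adjusted p = 1.32e-05) in DNMT1-AID and 1.84 ± 0.11 (adjusted p = 4.32e-11) in the compound line.

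The RNA sensors DHX58 (LGP2), IFIH1 (MDA5) and RIGI (RIG-I) were called in WT and in each tagged line. DHX58 differed most, at 3.53, 2.18 and 3.39 CPM in WT on day 4 and 23.9, 45.6 and 42.4 CPM for UHRF1-AID, 29.8, 18.6 and 23.5 for DNMT1-AID and 55.7, 52 and 26.7 for the compound line, differences from WT of 3.65 ± 0.30 (adjusted p = 0.000134) in UHRF1-AID, 2.99 ± 0.23 (adjusted p = 2.32e-06) in DNMT1-AID and 3.89 ± 0.39 (adjusted p = 0.000852) in the compound line. IFIH1 differed from WT by 1.62, 1.08 and 1.26 in UHRF1-AID, DNMT1-AID and the compound line, and RIGI by 1.24, 1.10 and 1.34. SOCS1, a feedback inhibitor of JAK signalling, was called in the 3 lines (1.08, 1.30 and 1.52). It was already higher in the compound line on day 0, at 6.58, 5.37 and 5.35 CPM against 1.76, 2.86 and 3.19 in WT (1.15 ± 0.24, adjusted p = 0.0425), and its day effect beyond that of WT was called in no line. EIF2AK2 (PKR), which halts translation on double-stranded RNA, was called in UHRF1-AID (1.03 ± 0.13, adjusted p = 0.000939).

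Of the ligands, only type III interferons gave enough counts to be tested. IFNL2 read 2.51, 1.16 and 0.856 CPM in the compound line against 0, 0 and 0.185 in WT (4.44 ± 0.79, adjusted p = 0.000223). IFNL3 was called in UHRF1-AID (2.62 ± 0.58, adjusted p = 0.0146), at 0.715, 1.63 and 0.768 CPM against 0.257, 0.121 and 0.123 in WT, and in the compound line (3.78 ± 0.72, adjusted p = 0.00143), at 4.26, 2.13 and 0.734 CPM. Both genes had 0 counts in all 12 day 0 libraries. IFNL1, named after its values were seen, was also called in the compound line (5.21 ± 1.16, adjusted p = 0.0147), at 4.82, 4.38 and 0.856 CPM against 0.257, 0 and 0 in WT on day 4. IFNL2 and IFNL3 are near-identical copies, so that the assignment of reads between them is uncertain.

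**Figure D5:**
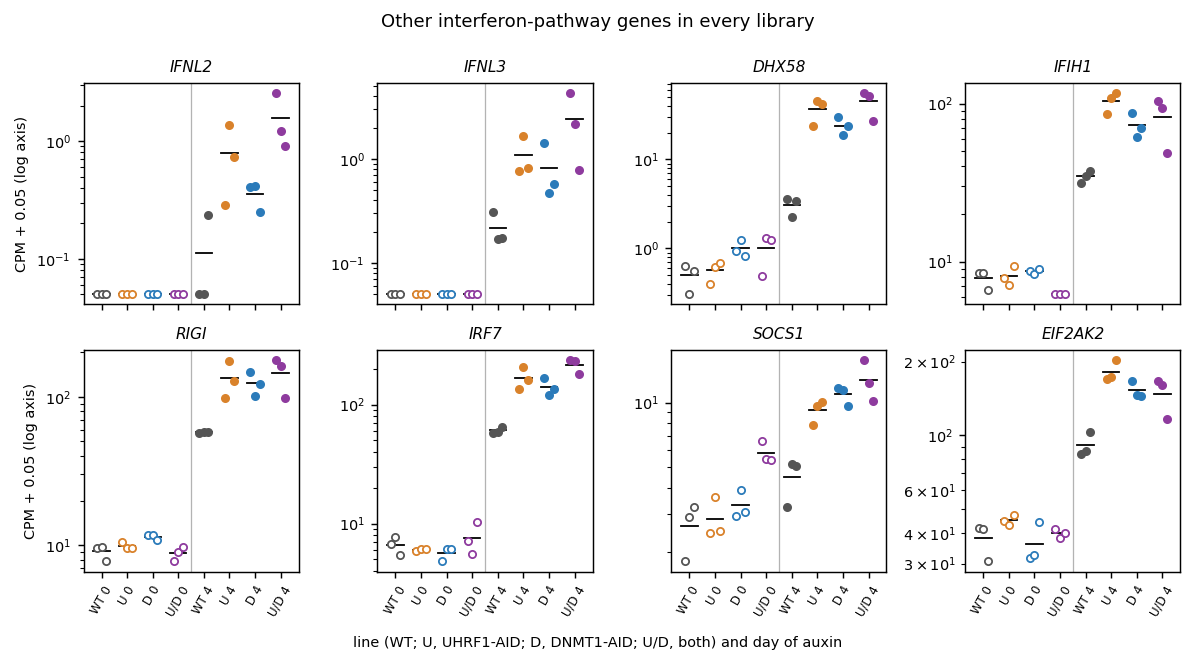
CPM + 0.05 (log axis) of 8 other genes of the interferon pathway in every library, by line and day, with open points for day 0, filled points for day 4 and bars for group means. IFNL2 and IFNL3 sit at the floor in the 12 day 0 libraries, and DHX58 takes a second step in each tagged line.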

How the data were processed

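Poly(A) RNA of 24 HCT116 libraries was sequenced. Per the labels and the study's methods, the authors used STAR (build hg38) for alignment and featureCounts for counting, and deposited raw counts of reads on each gene, 1 table per library. The strand setting and the treatment of reads shared by genes were not given in the sources used here. Of the 45 effector genes, 14 have exons that overlap another gene.

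The 92 ERCC sequences were left out of library sizes. Counts were tested with edgeR 4.0.16 (R 4.3.3): filterByExpr within the libraries compared, TMM scaling, robust quasi-likelihood F-test, Benjamini-Hochberg adjustment over all genes tested, calls at an adjusted p under 0.05 and a log2 fold change beyond 1. Each comparison used its own groups, and excess over WT was the difference of the 2 day effects. SE is the log2 fold change divided by the square root of F. CPM are TMM-scaled over 24 libraries. Alternatives were DESeq2 1.42.0, RLE, no filter, 1 fit of 24 libraries, a replicate block, no minimum fold change, removal of a gene-length trend, and each library left out. Self-tests on simulated counts were run. Replicates of a group differed by more than sampling noise (chi-square per degree of freedom 3.72 to 64.7 over 24 pairs).

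Same-numbered libraries of UHRF1-AID on the 2 days deviated together (correlations 0.228, 0.143 and 0.122 across genes), and were taken as paired in an alternative. The effector genes and other lists were chosen with earlier results of these data known. All 45 were accounted for by name; the 24 with the smallest p over 7 tests (WT over the days, 3 lines against WT on day 4, 3 contrasts beyond WT) are given with their values in WT and on day 4, their full set of libraries being in the heat map. Up to 8 other pathway genes called against WT on day 4 were named, by smallest p. Promoter windows were from RefSeq (GRCh38.p14), matched by symbol. Values of 1 pathway gene are not reported here.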

Additional observations from a re-analysis of the deposited data

Results flagged for a closer look

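The change over the days differed between a tagged line and WT, by the test of the difference of the 2 day effects, for the following genes, given with the excess over WT on the log2 scale. In UHRF1-AID these were MX1 (5.95), IFI27 (4.26), IFITM1 (3.96), BST2 (3.29), EPSTI1 (2.92), SAMD9 (1.99), ISG20 (1.70), IFI35 (1.64), IFI6 (1.51), SP110 (1.28), PARP14 (1.20), PARP12 (1.20), DTX3L (1.18), HERC5 (1.14) and PARP9 (1.13). In DNMT1-AID they were IFI27 (3.64), IFITM1 (3.35), EPSTI1 (3.26), LAMP3 (2.55), IFI6 (1.73), OASL (1.71) and IFITM2 (1.07). In the compound line they were MX1 (7.02), IFI27 (3.57), IFITM1 (3.41), ISG20 (2.22), LAMP3 (2.18), USP18 (2.00), OASL (1.92), IFI35 (1.70), OAS3 (1.46), DTX3L (1.43), PLSCR1 (1.34), UBE2L6 (1.27), PARP9 (1.19), ISG15 (1.08) and SP110 (1.06). IFI27 and IFITM1 recur in all 3 lists, which share the WT libraries. The DNMT1-AID and compound day effects and that of WT each set folder 1 against folder 2, whereas that of UHRF1-AID stays within folder 1, and the part of the folder in the UHRF1-AID list was not tested.

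UHRF1-AID and DNMT1-AID differed from each other on day 4 in MX1 (4.61), RTP4 (2.34) and XAF1 (1.50), as log2 differences of UHRF1-AID over DNMT1-AID. MX1 was the one called in every fit that left out 1 library. MX1 read 340, 272 and 103 CPM in the compound line, and its difference from either single-tagged line was not tested.

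Spike-in reads, which no comparison used, made up 0.891% to 1.65% of the counts of the WT, DNMT1-AID and compound libraries of day 4 and 0 of those of the other 15 libraries.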

How the results depend on the processing

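Counts of effector genes called higher stayed within 1.5 times the reported value under RLE scaling and after removal of the gene-length trend, in every comparison. So did the counts for WT over the days, for UHRF1-AID over the days and for the 3 lines against WT on day 4 under every setting that kept all libraries. For the day effect beyond that of WT, no filter on low counts gave 29 for UHRF1-AID and 23 for DNMT1-AID, DESeq2 gave 26, 15 and 26 for UHRF1-AID, DNMT1-AID and the compound line, and the fit of all 24 libraries gave 4 for DNMT1-AID. In the compound line on day 0 the fit of all 24 libraries called 2. Without a minimum fold change, 5 were called higher and 1 lower in UHRF1-AID against DNMT1-AID on day 4. The cause was not tested.

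With the replicate number as a replicate block, 2 were called in the compound line on day 0 and 1 in UHRF1-AID against DNMT1-AID. The block gave 44 for UHRF1-AID over the days, the same count as without it, and 34, 33, 27 and 27 for WT over the days and for UHRF1-AID, DNMT1-AID and the compound line against WT on day 4. Beyond WT the block gave 10, 6 and 12 in UHRF1-AID, DNMT1-AID and the compound line. Same-numbered libraries deviated together in every pair for UHRF1-AID over the days (correlations 0.228, 0.143 and 0.122). For the compound line against WT on day 0 the correlations were also above 0 in every pair, but smaller (0.0384, 0.0129 and 0.0758). In the other comparisons of 2 groups they were not all above 0.

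With 1 library left out in turn, the called counts ranged from 33 to 37 for WT over the days, 23 to 40, 18 to 33 and 14 to 40 for the 3 lines against WT on day 4, 0 to 4 for the compound line on day 0, 2 to 29, 0 to 11 and 8 to 30 for the contrasts beyond WT, 43 to 44 for UHRF1-AID over the days and 1 to 4 for UHRF1-AID against DNMT1-AID. No single-gene call changed sign under any of these settings. Calls lost numbered 2 with DESeq2, 4 with RLE, 6 without the length trend, 16 with all 24 libraries in 1 fit, 17 without the filter and 25 with the block. Calls kept ranged from 188 with the block to 211 with DESeq2. Over all fits with 1 library left out, 337 calls were lost and 1161 kept.

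Depth limits what can be said of genes at 0 or 1 count per library, such as RTP4 and XAF1 in WT.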
